A study of Mus musculus with 4 samples.

Results

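The genes described here are 38 genes of glucose breakdown and of the response to low oxygen: 16 glycolytic enzymes, 4 kinases that set the flow through glycolysis or into the mitochondrion, 4 enzymes of the pentose phosphate pathway, 5 genes of the hypoxia inducible factor (HIF) and its regulators, 6 HIF targets and the 3 metabolic regulators Myc, Mtor and Txnip. They were listed by name for these roles, with earlier results of these data known. All 38 have a row among the 22558 genes of the count table, and all 38 passed the limit on low counts that left 11711 genes for the test. Their lowest count in any library was 66.2.

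Group 2 innate lymphoid cells (ILC2s) are tissue lymphocytes without antigen receptors that answer the alarmin IL-33. ILC2s were sorted from the lungs of C57BL/6 wild type (WT) mice and of mice labelled ICAM-1 KO, the constitutive knockout strain B6.129S4-Icam1tm1Jcgr/J, in which the gene of the adhesion molecule ICAM-1 is disrupted in every cell and not only in ILC2s. By the labels, the mice of both groups were 6 weeks old and received 0.5 µg of recombinant mouse IL-33 into the nose 3 times, so no library shows unstimulated cells. The study's methods describe a sort on day 4 from pools of 4 mice at a stated purity above 95%. There are 2 libraries per group. The p-values set the difference between the groups against the spread between libraries within them, estimated with information shared across genes. As each library is a pool, the spread between mice is not measured.

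Glycolysis turns glucose into pyruvate in the cytosol, and lactate dehydrogenase then turns pyruvate into lactate. The pentose phosphate pathway branches off glucose 6-phosphate and provides NADPH and ribose. HIF is a transcription factor whose alpha subunit is hydroxylated by the EGLN enzymes when oxygen is present and is then degraded through VHL. When oxygen falls, or when signals through mTOR raise its synthesis, HIF pairs with ARNT and binds sites with cores such as ACGTG, among them sites in genes of glycolysis. Activated lymphocytes are known for high glycolysis, in which MYC and mTOR also take part.

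The libraries held 24796148 to 28782471 estimated counts. Over log2 normalised counts, the libraries correlated at 0.963 within WT, at 0.968 within the group labelled ICAM-1 KO and at 0.927 to 0.935 between the groups, which describes genes and not replicates. RNA of the targeted gene was not lower under the knockout label: Icam1 (chr9:21015985-21028817, plus strand, mm10) had estimated counts of 2579 and 2630 in WT, against 2812 and 3453 under the knockout label (log2 fold change 0.33, SE 0.108, adjusted p = 0.0745). The study describes the strain as lacking ICAM-1, and measured the protein by flow cytometry on lung ILC2s of IL-33-challenged mice of both genotypes. RNA counts do not measure the protein, and a count per gene does not show which exons the reads came from. Directions below are given for the libraries by their label, as KO-labelled. Of 61 tested markers of cell types other than ILC2s, 37 rose and 2 fell, and their summed normalised count was 1752 and 1948 in WT and 3456 and 4656 in the KO-labelled libraries. The 10 ILC2 markers summed to 5928 and 6266 in WT and to 5529 and 5846 in the other group. Of these, 2 rose (Klrg1 and Ptprc) and 2 fell (Il2ra and Id2), and their median log2 fold change was 0.01. Ptprc encodes CD45, by which the study gates eosinophils as well as ILC2s, so its rise is not particular to ILC2s. It adds 706 and 701 to the sums in WT and 920 and 896 to those in the KO-labelled libraries. The sum leans on its most abundant gene, Id2, at 1340 and 1364 in WT and 842 and 962 in the KO-labelled libraries. In bulk libraries, fewer cells of a type and less RNA per cell cannot be told apart.

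In the KO-labelled libraries, 8 of the 38 genes fell and 2 rose. The genes that fell were Tpi1, Gapdh, Pgk1, Pgam1 and Ldha of glycolysis, Tkt of the pentose phosphate pathway, the HIF target Ero1l and Myc. The genes that rose were the HIF target Vegfa and Txnip, an inhibitor of glucose uptake. Over all 11711 genes tested, 4.97% fell and 8.8% rose at the same threshold, an adjusted p under 0.05 in edgeR's quasi-likelihood test. Every fall was below 2-fold, as against 0.538% of all genes that fell at least 2-fold, and Vegfa was the 1 gene of the list that rose at least 2-fold, against 4.94% of all genes. The median log2 fold change was -0.09 over the 38 genes and 0.01 over all genes tested. The log2 fold change was below 0 in 22 of the 38 genes, against 48.8% of all genes. At an unadjusted p under 0.05, 13 lay lower and 5 higher, against 13.1% and 17.1% of all genes. In 19 of the 38 genes both KO-labelled libraries lay below both WT libraries, and in 8 both lay above, against 31.3% and 28.3% of all genes tested. The summed normalised count of the 38 genes was 12008 and 12234 in WT and 10003 and 9972 in the KO-labelled libraries.

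The calls of lower genes depended on all 4 libraries. Of the 8, Ero1l stayed called without the first KO-labelled library, and Ero1l, Tkt and Myc without the second. None of the 8 passed without the first or the second WT library, where the tests have fewer samples, although all 8 log2 fold changes stayed below 0 in each of these fits. Without the first WT library 1 other gene, Hk2, was called lower. Vegfa was called in all 4 fits, and Txnip only without the first KO-labelled library.

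**Figure D1:**
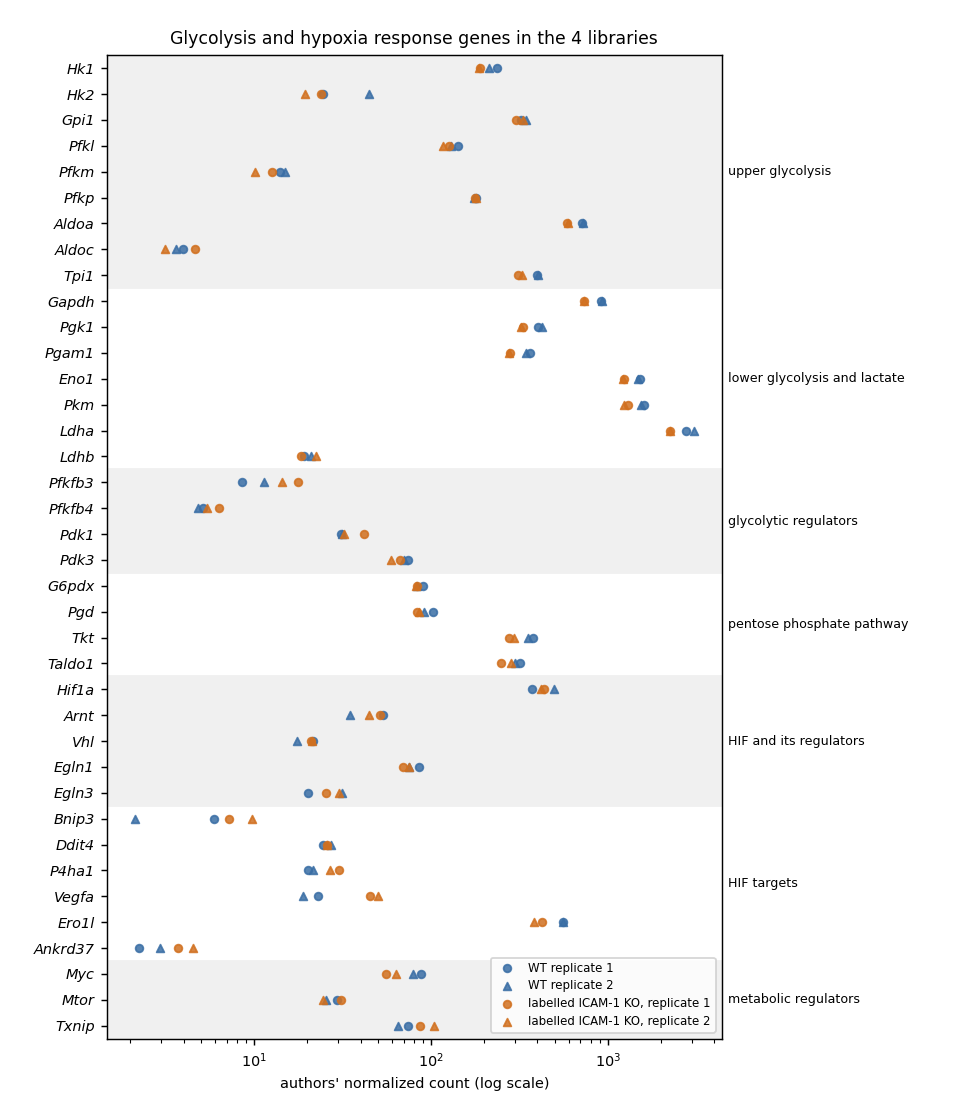
The authors' normalised count (horizontal, log scale) of each of the 38 genes in each library, with WT in blue and the KO-labelled libraries in orange, circles for replicate 1 and triangles for replicate 2, and genes grouped by role. From Aldoa to Ldha the orange points of the abundant enzymes lie left of the blue ones, as for Ldha at 2247 and 2253 against 2777 and 3049, while those of Vegfa lie to the right at 45.1 and 50.4 against 22.9 and 18.8.

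The first steps of glycolysis, from hexokinase to phosphofructokinase, held no gene that passed the test. Hk1, the hexokinase of most tissues, had 237 and 213 normalised counts in WT and 190 and 187 in the KO-labelled libraries (log2 fold change -0.23, SE 0.0914, adjusted p = 0.129). Hk2, the inducible hexokinase and a HIF target, had 24.7 and 44.9 in WT and 23.9 and 19.4 in the other group (log2 fold change -0.66, SE 0.268, adjusted p = 0.134). The groups do not overlap in either gene, but for Hk2 the WT libraries differed by more than the first WT library did from the KO-labelled ones. Per length, as TPM (counts divided by the length of the longest coding transcript and scaled to one total in each library), Hk1 made up 92.5% and 86% of both hexokinases in WT and 91.1% and 92.6% in the KO-labelled libraries, so that the shares overlap. Gpi1, which makes fructose 6-phosphate, had 323 and 343 normalised counts in WT and 303 and 332 in the other group, where the groups overlap.

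Of the phosphofructokinases, which catalyse the committed step, none passed the test either. Pfkp, the platelet type, had 179 and 174 normalised counts in WT and 177 and 179 in the KO-labelled libraries. Pfkl, the liver type, had 143 and 130 in WT and 127 and 117 in the other group, and Pfkm, the muscle type, 14.1 and 15 in WT and 12.7 and 10.1. Adjusted p was 0.794 for Pfkp, 0.387 for Pfkl and 0.366 for Pfkm. By TPM, Pfkp gave 50% and 51.1% of the 3 in WT and 52.7% and 55.4% in the KO-labelled libraries, Pfkl 44.3% and 42.5% against 41.9% and 40.1%, and Pfkm 5.67% and 6.34% against 5.42% and 4.48%. The order of Pfkp and Pfkl depended on the gene length used: with all exons merged, Pfkl gave 54.9% and Pfkp 34.3% in the first WT library. Pfkm was the least of the 3 with either length.

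The abundant enzymes from aldolase to lactate lay lower together. In all 8 of the abundant enzymes of this stretch (Aldoa, Tpi1, Gapdh, Pgk1, Pgam1, Eno1, Pkm and Ldha) both KO-labelled libraries lay below both WT libraries, and the log2 fold changes ran from -0.26 to -0.35. Of these 8 genes, 5 passed the test. The low isozymes of this stretch, Aldoc and Ldhb, are left out, with log2 fold changes of 0.06 and 0.05. The set of 8 was not among the planned lists. All 8 belong to the most abundant 10% of the genes tested, of which 57.3% lay lower without overlap and 19% fell. Their normalised counts summed to 8679 and 8883 in WT and to 7007 and 6962 in the KO-labelled libraries, and by the median of their fitted changes they lay 18.9% lower. Their counts come from the same 4 libraries, so they are not independent of each other.

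Ldha, which makes lactate from pyruvate, was the most abundant of the 38 genes per length and ranked 20 among all genes tested in WT and 32 in the KO-labelled libraries. It had 2777 and 3049 normalised counts in WT (2913 ± 193, SD, n = 2) and 2247 and 2253 in the KO-labelled libraries (2250.0 ± 3.96, SD, n = 2). The fall was 21.3% (log2 fold change -0.35, SE 0.088, adjusted p = 0.0344 in edgeR's fit over all genes), and with any 1 library left out the adjusted p ran from 0.0719 to 0.208. Its partner isozyme Ldhb, which favours the return of lactate to pyruvate, had 19.2 and 21.1 in WT and 18.5 and 22.4 in the other group (adjusted p = 0.89). By TPM, Ldhb was 0.953% and 0.952% of both lactate dehydrogenases in WT and 1.13% and 1.36% in the KO-labelled libraries. Nearly all lactate dehydrogenase RNA was thus Ldha in each library.

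Gapdh, which oxidises glyceraldehyde 3-phosphate and is widely used as a reference gene, had 911 and 926 normalised counts in WT and 732 and 734 in the KO-labelled libraries (log2 fold change -0.30, SE 0.0783, adjusted p = 0.0375). Pgk1, the first enzyme of the pathway to yield ATP, had 403 and 424 in WT and 330 and 324 in the other group (-0.31, SE 0.0813, adjusted p = 0.0368). Pgam1, which moves the phosphate of phosphoglycerate, had 363 and 345 in WT and 278 and 276 in the KO-labelled libraries (-0.33, SE 0.082, adjusted p = 0.0329). In these genes the KO-labelled libraries lay within a few counts of each other and below both WT libraries. Tpi1, which interconverts the triose phosphates, had 399 and 402 in WT and 310 and 326 in the other group (-0.30, SE 0.0826, adjusted p = 0.0415). With any 1 library left out, the lowest adjusted p of these genes was 0.0995 for Gapdh, 0.0854 for Pgk1, 0.0816 for Pgam1 and 0.0671 for Tpi1.

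Aldoa, Eno1 and Pkm did not pass the threshold, though their values lay close to it. Aldoa, which splits fructose bisphosphate, had 717 and 719 normalised counts in WT and 585 and 596 in the KO-labelled libraries (log2 fold change -0.26, SE 0.0786, adjusted p = 0.0624). Eno1, the enolase, had 1517 and 1478 in WT and 1225 and 1214 in the other group (-0.27, SE 0.0794, adjusted p = 0.0537). Pkm, which makes pyruvate and ATP, had 1593 and 1539 in WT and 1301 and 1239 in the KO-labelled libraries (-0.28, SE 0.0807, adjusted p = 0.0529). Their groups do not overlap, and Eno1 and Pkm were called in 7 and Aldoa in 4 of the 8 other settings that kept all libraries. The brain aldolase Aldoc had 3.96 and 3.64 in WT and 4.65 and 3.15 in the other group, at most 0.437% of both aldolases by TPM.

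Per length, Ldha, Eno1, Gapdh, Pkm and Aldoa were the most abundant of the 38 genes in WT, at 3332 ± 160, 1535 ± 56, 1344 ± 8.51, 1338 ± 56.5 and 963 ± 16.1 TPM (SD, n = 2). In the KO-labelled libraries they stood at 2745 ± 90, 1332 ± 54.4, 1143 ± 37.2, 1157 ± 79.4 and 844 ± 18 TPM. The same 5 genes led in both groups, with Gapdh and Pkm, which did not differ beyond their spread, changing places. At the other end, Aldoc had 2.81 ± 0.219 TPM in WT and Pfkfb4 2.95 ± 0.195.

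**Figure D2:**
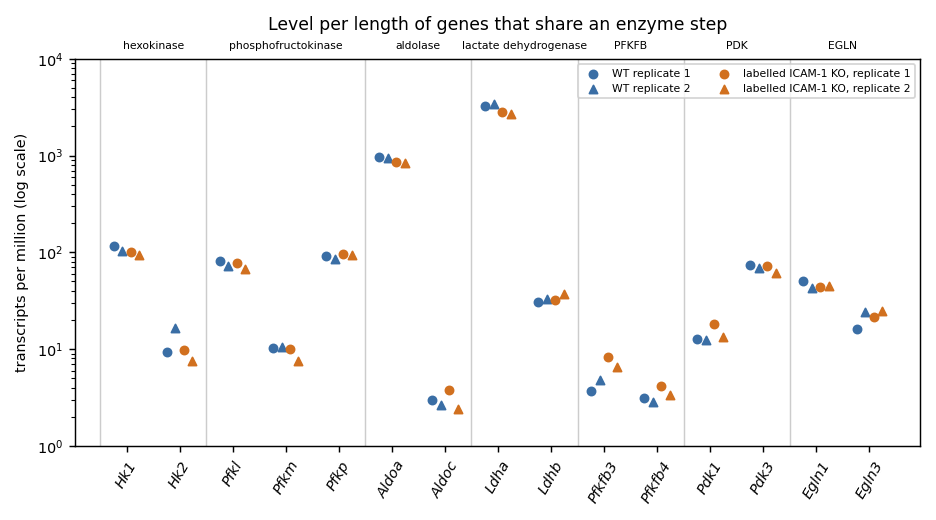
Level per length in TPM (log scale) of the genes that share an enzyme step, with 1 point per library, WT in blue and the KO-labelled libraries in orange. In each library Ldha lies far above Ldhb, Aldoa above Aldoc and Hk1 above Hk2, while Pfkl and Pfkp lie close together.

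Many of the enzyme genes are reached by HIF and MYC through sites near their start, so the 250 bases before the RefSeq start (GRCm38.p6) were searched on both strands for ACGTG, the core of the hypoxia response element, and for CACGTG, the E-box that MYC binds. CACGTG reads the same on both strands and so counts as 2 matches of ACGTG. An entry was found for 37 of the 38 genes (not for Myc, and for Ero1l under its newer symbol Ero1a), and 15 of these 37 (40.5%) held ACGTG, against 16.6% of all 32841 promoters. CACGTG stood in 4 of 37 (10.8%), against 6.02% of all promoters. Among the genes that fell, 4 of the 7 with an entry held ACGTG (Ldha, Pgk1, Pgam1 and Ero1l), among the genes that did not pass 11 of 28, and among the genes that rose 0 of 2. A match is only a run of letters, and the list was drawn in part from known HIF targets. Where a gene had several entries, the start nearest the 5′ end of its row in the count table was taken. Whether that start is used in these cells was not tested. The 32841 promoters are not limited to the genes tested. The other 3 with an entry that fell, Tpi1, Gapdh and Tkt, held no match. The windows of Ldha, Pgk1 and Pgam1 are shown because they are the glycolytic enzymes that fell and hold a match, and that of Vegfa as the gene that rose most, each 5′ to 3′ with ACGTG or its reverse complement CACGT in capitals. They lie at chr7:46845554-46845803 (plus strand), chrX:106186850-106187099 (plus), chr19:41911621-41911870 (plus) and chr17:46032378-46032627 (minus).
Ldha: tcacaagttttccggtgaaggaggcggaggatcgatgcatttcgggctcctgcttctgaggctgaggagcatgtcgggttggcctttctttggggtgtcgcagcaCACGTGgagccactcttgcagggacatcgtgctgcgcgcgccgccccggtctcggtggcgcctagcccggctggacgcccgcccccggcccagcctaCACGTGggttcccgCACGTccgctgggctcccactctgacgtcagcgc
Pgk1: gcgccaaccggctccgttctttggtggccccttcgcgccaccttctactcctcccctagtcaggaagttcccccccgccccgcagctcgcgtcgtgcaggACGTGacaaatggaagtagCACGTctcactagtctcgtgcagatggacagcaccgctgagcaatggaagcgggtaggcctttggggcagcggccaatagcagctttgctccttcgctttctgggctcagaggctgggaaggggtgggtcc
Pgam1: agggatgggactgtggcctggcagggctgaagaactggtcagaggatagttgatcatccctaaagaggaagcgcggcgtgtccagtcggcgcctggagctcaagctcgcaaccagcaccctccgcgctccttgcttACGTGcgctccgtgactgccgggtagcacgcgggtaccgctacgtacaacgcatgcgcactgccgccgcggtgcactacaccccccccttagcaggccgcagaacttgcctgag
Vegfa: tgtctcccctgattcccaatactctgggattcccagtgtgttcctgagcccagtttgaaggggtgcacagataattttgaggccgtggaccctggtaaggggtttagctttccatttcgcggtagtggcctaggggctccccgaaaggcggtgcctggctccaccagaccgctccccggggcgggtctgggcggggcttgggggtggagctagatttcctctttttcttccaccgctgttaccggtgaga
In Ldha the E-box appears 2 times and a further ACGTG core begins 34 bases before the start. The RefSeq start of Ldha lies 4329 bases inside the gene's row in the count table. Other starts also lie inside their rows, by 8661 bases for Aldoa, 6492 for Hif1a, 5857 for Ankrd37, 772 for Tkt and 694 for Gapdh. Pgk1 holds 2 matches, at 150 and 131 bases before the start, and Pgam1 holds 1, at 114 bases. In Vegfa these letters are not in the window, and sites beyond these 250 bases were not searched in any gene.

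Of the 4 kinases that steer glycolysis none passed the test. Pfkfb3, itself a HIF target, makes a regulatory fructose bisphosphate that switches phosphofructokinase on and is not the one that Aldoa splits. Pfkfb3 had 8.55 and 11.4 normalised counts in WT and 17.7 and 14.4 in the KO-labelled libraries (log2 fold change 0.71, SE 0.247, adjusted p = 0.0885). Pfkfb4, of the same family, had 5.15 and 4.81 in WT and 6.35 and 5.45 in the other group (adjusted p = 0.614). By TPM, Pfkfb3 made up 54.7% and 63.3% of the pair in WT and 67.1% and 65.8% in the KO-labelled libraries. The pyruvate dehydrogenase kinases keep pyruvate out of the mitochondrion. Pdk1, the HIF target among them, had 31 and 31.5 normalised counts in WT and 41.7 and 32.3 in the KO-labelled libraries (adjusted p = 0.302). Pdk3 had 74.3 and 70.2 in WT and 66.8 and 59.8 in the other group (adjusted p = 0.364). By TPM, Pdk3 was the larger of the pair in each library, at 85.5% and 84.6% in WT and 79.7% and 82% in the KO-labelled libraries.

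In the pentose phosphate pathway all 4 log2 fold changes were below 0 and 1 gene passed. Tkt, the transketolase of the non-oxidative arm, had 379 and 354 normalised counts in WT and 276 and 296 in the KO-labelled libraries (log2 fold change -0.33, SE 0.088, adjusted p = 0.0402), with an adjusted p of 0.0448 to 0.187 when 1 library was left out. Taldo1, its partner in that arm, had a log2 fold change of -0.19 (adjusted p = 0.238). In the oxidative arm, which makes NADPH, the values were -0.03 for G6pdx (adjusted p = 0.877) and -0.17 for Pgd (adjusted p = 0.329).

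The RNA of HIF and its regulators held no call. Hif1a, the oxygen-regulated subunit, had 370 and 499 normalised counts in WT and 435 and 416 in the KO-labelled libraries, so that the latter lay between the WT libraries (log2 fold change 0.00, SE 0.129, adjusted p = 0.989). These are RNA values, and HIF is regulated in large part at the protein. Egln1, the main HIF hydroxylase, had 85.8 and 75.1 in WT and 69.2 and 74.7 in the other group (adjusted p = 0.482). Egln3, a hydroxylase that HIF also induces, had 20.3 and 31.6 in WT and 25.5 and 30.3 in the KO-labelled libraries (adjusted p = 0.737). By TPM, Egln1 gave 75.8% and 63.8% of the pair in WT and 66.8% and 64.6% in the other group, which overlap. For Arnt, the partner subunit, the log2 fold change was 0.15 (adjusted p = 0.644). For Vhl, which recognises hydroxylated HIF, it was 0.16 (adjusted p = 0.617).

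The 6 HIF targets did not move in 1 direction. Vegfa, which encodes the vascular endothelial growth factor, had 22.9 and 18.8 normalised counts in WT (20.8 ± 2.92, SD, n = 2) and 45.1 and 50.4 in the KO-labelled libraries (47.7 ± 3.8, SD, n = 2). It rose 2.34-fold (log2 fold change 1.23, SE 0.162, adjusted p = 0.00274), and its adjusted p ran from 6.07e-09 to 0.0309 over the 8 other settings. By TPM, Vegfa stood at 0.433% and 0.323% of Ldha in WT and at 1.05% and 1.18% in the KO-labelled libraries. Markers of cell types in which Vegfa is well known moved beside it: the summed normalised count of 10 alveolar epithelial markers was 108 and 95.6 in WT and 525 and 1018 in the KO-labelled libraries, and that of 10 macrophage and monocyte markers 267 and 287 in WT and 569 and 835. Of the epithelial markers 6 of 7 tested rose, and of the macrophage markers 7 of 9, and none of either list was at 0 in all libraries. In the KO-labelled libraries the epithelial sum leans on Sftpc, at 253 and 537 normalised counts, against 24.2 and 0.57 in WT. The rise was not particular to these 2 lists: 9 of 9 endothelial and 5 of 8 T cell markers tested also rose. Of fibroblast and smooth muscle markers 0 of 4 rose, and of red blood cell markers 0 of 2. By the study's methods the sort kept CD45+ cells and removed those with lineage markers, among them CD11b, CD11c and Gr-1. The part of epithelial cells or macrophages in the Vegfa value was not tested.

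Ero1l, the oxidase that forms disulfide bonds in the endoplasmic reticulum, fell. It had 557 and 561 normalised counts in WT (559 ± 2.94, SD, n = 2) and 425 and 382 in the KO-labelled libraries (404 ± 30.5, SD, n = 2), a fall of 26.4% (log2 fold change -0.44, SE 0.0846, adjusted p = 0.012). Per length it was the most abundant of these 6 genes, and it was called in all 8 other settings, and with 1 library left out its adjusted p ran from 0.00617 to 0.0628. P4ha1, a collagen prolyl hydroxylase, had 20.2 and 21.5 in WT and 30.3 and 26.8 in the other group (0.48, SE 0.168, adjusted p = 0.0912). Bnip3, a receptor for mitophagy, had 5.94 and 2.13 in WT and 7.23 and 9.71 in the KO-labelled libraries (1.12, SE 0.436, adjusted p = 0.12). Its 2 WT libraries differed by 1.48 on the log2 scale, the widest gap between replicates in the list. Ankrd37 had at most 4.52 normalised counts (adjusted p = 0.265), and Ddit4, an inhibitor of mTOR, had a log2 fold change of 0.02 (adjusted p = 0.945).

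Of the 3 metabolic regulators, 1 fell and 1 rose. Myc, a transcription factor that drives genes of glycolysis and growth, had 88 and 78.7 normalised counts in WT and 55.7 and 63.8 in the KO-labelled libraries (log2 fold change -0.45, SE 0.123, adjusted p = 0.0417). Txnip, which lowers glucose uptake and is induced when glucose products build up, had 74.2 and 65.3 in WT and 87.2 and 104 in the other group (0.48, SE 0.128, adjusted p = 0.0381). In both genes the groups do not overlap. Over the 8 other settings the adjusted p ran up to 0.103 for Myc and up to 0.148 for Txnip, and both lost their call when low genes were all kept or were filtered by edgeR's filterByExpr, and Myc also with library totals. With 1 library left out it ran from 0.0267 to 0.185 for Myc and from 0.00881 to 0.187 for Txnip. Mtor, the kinase of the growth pathway, had 29.4 and 25.4 in WT and 31.1 and 24.4 in the KO-labelled libraries (adjusted p = 0.905).

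**Figure D3:**
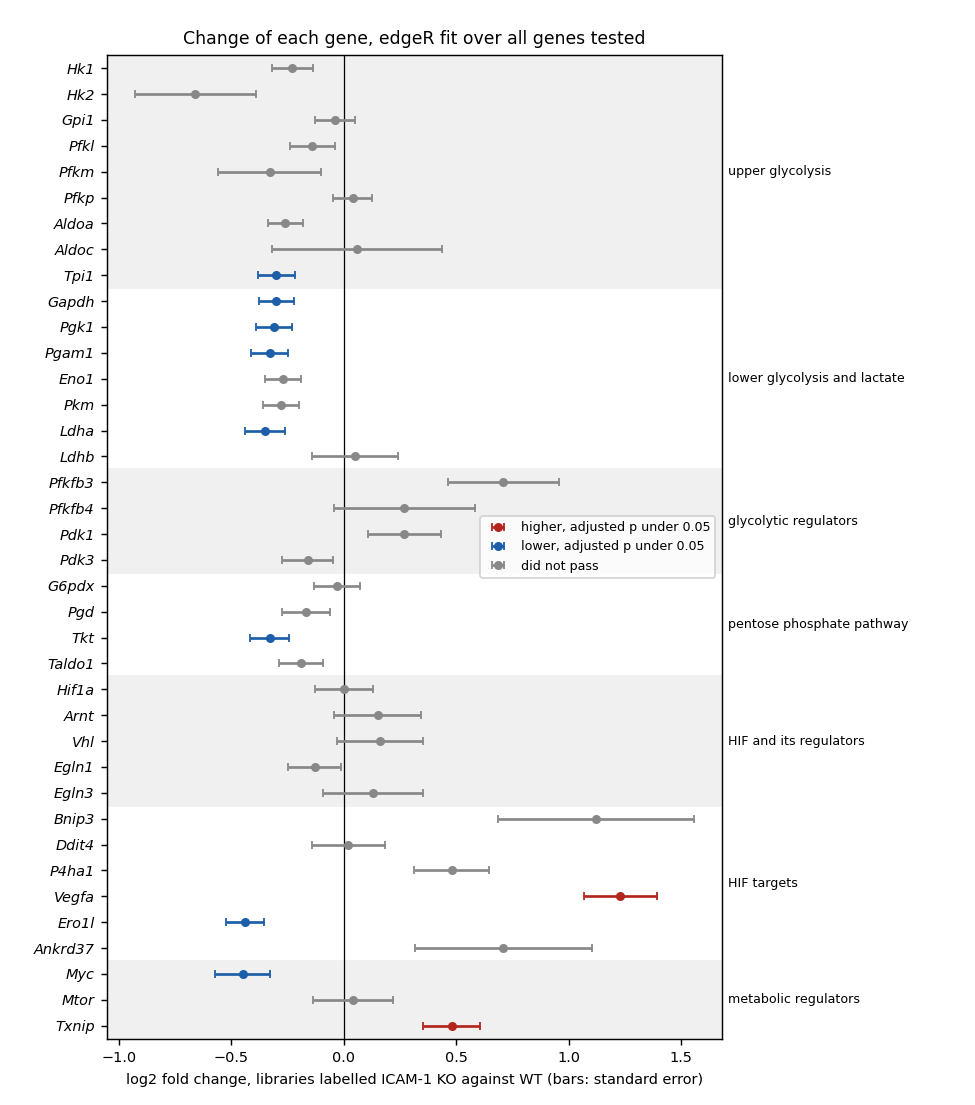
Log2 fold change of each of the 38 genes in the KO-labelled libraries against WT (horizontal), with the standard error as bars, blue for genes that fell, red for genes that rose and grey for genes that did not pass. The 8 abundant enzymes from Aldoa to Ldha line up between -0.26 and -0.35, Vegfa stands at 1.23, and the bars of low genes such as Bnip3 (SE 0.436) are wide.

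The direction of a gene went with its level across the whole table. The median log2 fold change was 0.24 in the least abundant 10% of the 11711 genes and -0.13 in the most abundant 10%, where 19% of the genes fell, 7.68% rose and 68.4% lay below 0. Of the 38 genes, 15 belong to that most abundant 10%, and 7 of these 15 fell and 0 rose. The 16 glycolytic enzymes had a median of -0.27 and the other 22 genes of 0.09. The fall of the abundant enzymes thus stands beside a downward shift of abundant genes in general, and the part of that shift in it was not tested. The summed markers of cells other than ILC2s rose at the same time, with 9 of 9 endothelial markers, 5 of 8 of T cells, 4 of 7 of B cells, 4 of 7 of neutrophils, 2 of 8 of eosinophils, basophils and mast cells, 0 of 4 of fibroblasts and smooth muscle and 0 of 2 of red blood cells called higher. The 2 markers called lower were the eosinophil genes Epx and Prg2. Epx had 1027 and 739 counts in WT and 0 and 0 in the KO-labelled libraries, and Prg2 1583 and 1041 against 33 and 118. Eosinophil markers stood on both sides, since the 2 called higher in the same list were Ccr3 and Il5ra. Ccr3 had 156 and 265 counts in WT and 419 and 803 in the KO-labelled libraries, and Il5ra 55 and 71 against 191 and 268. The part of any of these cells in the enzymes' values was not tested.

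**Figure D4:**
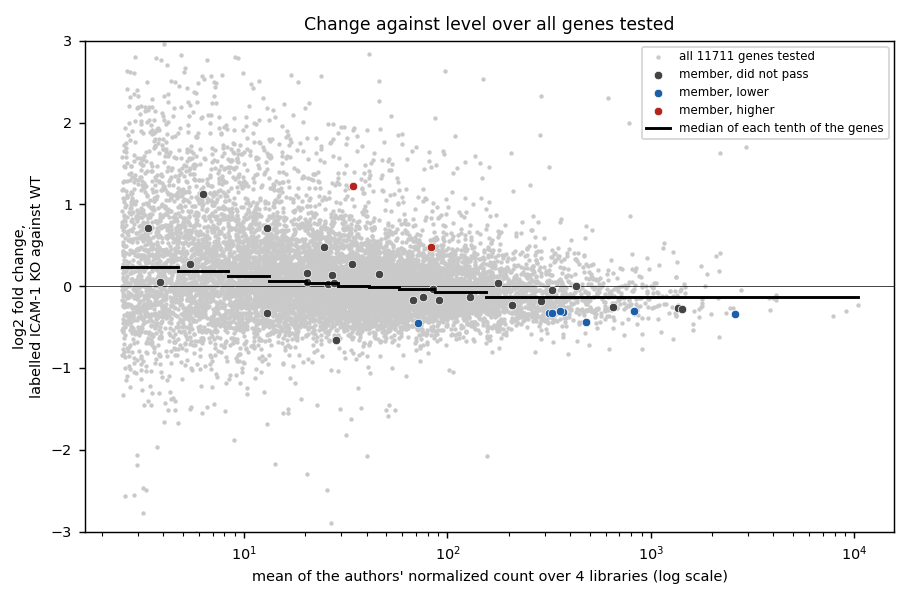
Log2 fold change of the KO-labelled libraries against WT (vertical) and mean normalised count over the 4 libraries (horizontal, log scale) for the 11711 genes tested in grey, with the 38 genes in colour and the median of each 10% of the genes, ordered by level, as a black bar. The bars go down from 0.24 to -0.13 with level, and the blue points of the enzymes that fell lie below the last bar; 79 genes lie outside the plotted range of 3 in either direction.

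Genes of the same pathways outside the list were read in the same fit. Of 96 such genes 83 were tested, 2 rose and 9 fell, against 8.8% and 4.97% of all genes tested, and their median log2 fold change was -0.12. The one that passed with at least 2-fold was Ldhd, the mitochondrial dehydrogenase of D-lactate, with 13.1 and 9.69 normalised counts in WT and 5.31 and 4.58 in the KO-labelled libraries (log2 fold change -1.18, SE 0.301, adjusted p = 0.0344). The genes that rose were Mxi1, a HIF target that opposes MYC (0.63, adjusted p = 0.0119), and Ndrg1, a HIF target with roles in stress and differentiation (0.72, adjusted p = 0.0265). Mxi1 had 40.1 and 39.4 in WT and 59.2 and 61.6 in the other group, and Ndrg1 30.9 and 33.8 in WT and 44.5 and 59.6. The sestrins, which restrain mTOR, came next without passing, with log2 fold changes of 0.87 for Sesn2 (adjusted p = 0.0506) and 0.57 for Sesn1 (adjusted p = 0.0508).

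Among the pathway genes that fell, Rbx1, a subunit of the ubiquitin ligase that VHL guides to HIF, had 236 and 243 normalised counts in WT and 169 and 179 in the KO-labelled libraries (-0.43, adjusted p = 0.0152). The log2 fold changes of the HIF targets were -0.57 for Fam162a (adjusted p = 0.0196) and -0.38 for Bhlhe40 (adjusted p = 0.0202). Bhlhe40, a transcription factor of activated lymphocytes, had 2010 and 1934 in WT and 1442 and 1527 in the other group. Castor1, the arginine sensor of the mTOR pathway, had a log2 fold change of -0.48 (adjusted p = 0.0334). The other 4 that passed were Slc16a3, the lactate exporter (-0.56, adjusted p = 0.0437), Adpgk, a glucokinase that uses ADP (-0.45, adjusted p = 0.05), Pgls of the pentose phosphate pathway (-0.39, adjusted p = 0.0482) and the HIF target Plod2 (-0.52, adjusted p = 0.0375). Of the 8 other settings, 4 called Slc16a3, 2 Adpgk, 4 Pgls and 6 Plod2. As in the list itself, HIF targets stood on both sides. Of the glucose carriers, Slc2a1 had a log2 fold change of -0.24 (adjusted p = 0.239) and Slc2a3 of 0.10 (adjusted p = 0.649). These calls, too, depended on single libraries: most were lost, and some other genes were called, when 1 library was left out. The log2 fold changes of the genes called with all libraries kept their sign in these fits. They ran from 0.48 to 0.92 for Ndrg1 and from -1.39 to -0.95 for Ldhd.

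Some of these counts cannot be assigned with certainty. Enzyme genes have near-identical copies elsewhere in the genome that can share reads, and the copies with a tested row had log2 fold changes of -0.36 for Eno1b (adjusted p = 0.0926) and -0.26 for Pgk1-rs7 (adjusted p = 0.477). Each of these values has the sign of its parent gene, and neither passed the test. The row of Aldoa spans more than 1 annotated gene of that name. Exons of 14 of the 38 genes share bases with another annotated gene, and whether counting used strand is not given in the sources used here. Among the genes called, 4 share such bases. Txnip shares 606 bases with the antisense gene Gm15441, which had at most 23.7 counts in any library. Tpi1 shares 34 bases with Spsb2, Gapdh 68 with Iffo1 and Tkt 1 with Mir3076.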

How the data were processed

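RNA of sorted lung ILC2s was measured in 4 libraries, grouped by the genotype in the labels. According to the study's methods, the libraries were made with a low-input SMARTer kit, and reads were aligned with STAR to mm10 with GENCODE release M20, quantified in Partek and normalised by upper quartile; the deposited count table is named for Partek's E/M method. The submitters' processing notes list STAR 3.5.3 and CASAVA 1.8.2, whereas the study's methods name another version of STAR. The authors deposited estimated counts per gene, not all of them whole numbers, and a normalised signal table, in which 1 was added to each count before scaling. Columns of the authors' own comparisons were not used.

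Estimated counts were rounded and tested with edgeR 4.0.16 (quasi-likelihood, upper quartile factors, two-sided, Benjamini-Hochberg adjustment over 11711 genes) in R 4.3.3. Genes needed a mean normalised count of at least 1 and a sum of at least 10. SE is the log2 fold change over the square root of its F value. TPM was computed from the estimated counts and the longest basic coding transcript of GENCODE M21, which matched all 38 genes. Alternatives used TMM factors, library totals, DESeq2 1.42.0, limma 3.58.1 on log2 normalised counts, edgeR's older method, other filters, a replicate block and each library left out; the gene length from merged exons was added after seeing the data. The scripts were tested on simulated data. The 38 genes, the pathway lists and the marker lists were chosen with earlier results of these data known. Values by library were given for genes that passed, for isozymes, for the 5 most abundant genes per length and for Hif1a, Myc, Mtor and Txnip, and pathway genes were named when called with at least 2-fold or among the 4 with the smallest adjusted p in each direction; Bnip3, P4ha1, Gpi1, Slc2a1, Slc2a3 and the other 4 pathway genes that fell were named after their values were seen.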

Additional observations from a re-analysis of the deposited data

How the results depend on the processing

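With 2 libraries per group, changes of low genes such as Bnip3 and Ankrd37 carry wide errors. Vegfa, Ero1l, Ldha and Gapdh were called in all 8 settings that kept every library, and all 10 called genes kept their direction in every setting. Without a filter on low counts, where more genes are tested, 334 genes were higher and 201 lower instead of 1030 and 582, the listed genes gave 1 higher and 5 lower instead of 2 and 8, and the other pathway genes 0 higher and 2 lower instead of 2 and 9. DESeq2 gave 930 genes lower and 6 pathway genes higher, and edgeR's filterByExpr 1 listed gene higher. The pathway genes higher were 4 with TMM factors and 6 with library totals, which gave 5 lower; the cause was not tested. Leaving out each library in turn gave 479 to 948 genes higher and 158 to 388 lower, 1 to 2 listed genes higher and 0 to 3 lower, and 0 to 4 pathway genes higher and 1 to 6 lower. The labels do not say whether replicates of the same number belong together. The differences between replicates of the 2 groups correlated at -0.0663 over 11711 genes, which is a single comparison and cannot settle this. With the replicate block 11 listed genes were lower and 5 pathway genes higher. Signs turned for genes that did not pass: with library totals G6pdx was 0.01 and Hif1a 0.04, with the replicate block Hif1a was 0.01, without a filter Ddit4 was -0.02 and Pfkp and Mtor were 0.00 (just below 0), with filterByExpr Ddit4 was -0.01 and with limma 0.00 (just below 0). With a library left out the log2 fold change ran from -0.12 to 0.03 for Gpi1, -0.23 to 0.31 for Aldoc, -0.11 to 0.19 for Ldhb, -0.08 to 0.03 for G6pdx, -0.20 to 0.23 for Hif1a, -0.12 to 0.49 for Arnt, -0.15 to 0.49 for Egln3, -0.05 to 0.10 for Ddit4 and -0.13 to 0.20 for Mtor.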
